A study of Mus musculus with 6 samples.

Results

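C4b, C2 and Cfb are complement genes that encode subunits of the C3 convertases. They were found as the entries of the authors' comparison table whose gene symbol is C4b, C2 or Cfb. Each had 1 probe set (transcript cluster), so 3 of the 23531 probe sets on the array were followed. Gene expression had been measured in adipose stromal cells, the fibroblast-like progenitors of fat, freshly isolated from male mice. Cells came from the subcutaneous or the perigonadal depot (visceral fat beside the gonads) and carried no treatment or transgene in the labels. They had been sorted magnetically as CD45-, CD31- and Sca1+, pooled over animals and run on 1 Affymetrix array per pool, with 3 pools per depot. The sources used here name no strain, age or diet, and do not tie same-numbered pools of the depots to shared animals. The p-values below therefore measure only the spread between these pools. In the main limma fit, SEs and p-values also borrow the spread of all probe sets. The prior had 5.24 degrees of freedom, against 2 of a probe set's own.

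Complement is a cascade of plasma proteins that tags surfaces for clearance and recruits inflammatory cells. In the classical and lectin pathways, C1 or lectin-bound proteases cleave C4 and C2, and the fragments form a C3 convertase in which C2 supplies the serine protease. In the alternative pathway factor B, the product of Cfb, is the homologous protease subunit. The liver makes most circulating complement, but fibroblasts and adipose stromal cells also transcribe these genes, and interferon gamma is a known inducer of C4, C2 and factor B.

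The data fell into clear depot groups. Arrays of the same depot correlated at 0.991 to 0.994 across probe sets (Pearson, log2 intensity) and arrays of different depots at 0.978 to 0.981, and array medians lay between 6.44 and 6.96. The stromal marker Ly6a, which encodes Sca1 and was looked up because the sort used it, had a normalized intensity of 552 ± 59.5 in subcutaneous pools and of 479 ± 44.04 in perigonadal ones (each mean ± SD is over n = 3 pools, also further on). The genes for CD45 and CD31 had no name here, so the depletion steps could not be read. A probe set had a name only if the authors' paired test had kept it at an unadjusted p below 0.05, which was so for 3541 of 23531 probe sets (15.0%).

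C4b, C2 and Cfb all had lower intensities in perigonadal than in subcutaneous stromal cells. C4b, which encodes the C4 component of the classical pathway, was 5.94-fold lower, C2 2.10-fold lower and Cfb 1.90-fold lower. All 3 genes had been picked through this same contrast, so their differences are a description and carry no test here.

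The C4b probe set (10450242, chromosome 17, band B1) read 302 in subcutaneous pool 1, 316 in pool 2 and 296.5 in pool 3, as linear normalized intensity. The perigonadal pools, in the same order, read 43.1, 50.1 and 59.55. The lowest subcutaneous pool was 4.98 times the highest perigonadal pool, so the groups were far apart. The depot means were 305 ± 10.04 and 50.9 ± 8.24. On the log2(intensity + 1) scale, which understates changes of dim probe sets, perigonadal minus subcutaneous was -2.57 ± 0.11 (limma SE, also further on). The drop was seen in each same-numbered pair of pools, with intensity ratios of subcutaneous to perigonadal of 6.999, 6.31 and 4.98.

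C2, the protease subunit of the classical convertase (10450344, band B1 of chromosome 17), read 138, 129 and 143 in the subcutaneous pools. It read 61.7, 60.4 and 71.5 in the perigonadal pools, and no perigonadal pool reached a subcutaneous one. The means were 137 ± 7.17 and 64.5 ± 6.10, and the log2 difference was -1.07 ± 0.087. The ratios of the 3 pool pairs were the closest among these genes, at 2.23, 2.14 and 2.00.

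Cfb, the protease subunit of the alternative convertase (10450325, band B1 of chromosome 17), read 451, 388 and 376 in the subcutaneous pools and 210.4, 201 and 225 in the perigonadal pools. Subcutaneous pool 1 stood above the other two, and the groups did not overlap. The means were 405 ± 40.01 and 212 ± 12.05, and the log2 difference was -0.93 ± 0.10. The pair ratios were 2.14, 1.93 and 1.67.

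**Figure D1:**
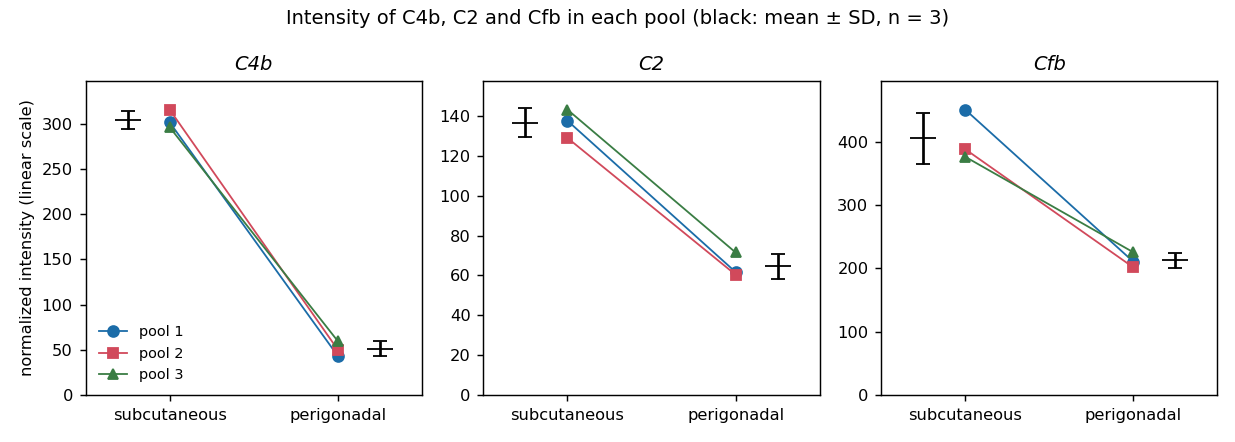
Normalized intensity (linear, each axis from 0) of C4b, C2 and Cfb in the 3 subcutaneous and 3 perigonadal pools, with lines joining pools of the same number and black bars for mean ± SD. Every perigonadal pool lies below every subcutaneous pool for all 3 genes, with the widest gap for C4b (lowest subcutaneous 296.5, highest perigonadal 59.55).

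Non-overlap in this direction was common: it held for 14.4% of all probe sets and 48.0% of named genes, and nothing is read from it for genes chosen through this contrast. By the size of the log2 difference, C4b ranked 29 among all 23531 probe sets counted from the most strongly lower in perigonadal cells, C2 ranked 203 and Cfb 277. In the authors' deposited table the unadjusted p-values that kept them were 0.00313 for C4b, 0.00175 for C2 and 0.0123 for Cfb. The complement gene nearest to the threshold on the inside was Serping1, with 0.0495 in the authors' deposited table, and genes just outside had no name here.

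The spread within depots differed between the genes. C4b was the tightest of them in subcutaneous pools (coefficient of variation 3.29%) and the widest in perigonadal pools (16.2%). Cfb showed the reverse, with 9.88% in subcutaneous and 5.67% in perigonadal pools, and C2 lay between with 5.24% and 9.45%. Perigonadal pool 3 had the highest value for all 3 genes, as it did for 38.9% of all probe sets. In subcutaneous cells the highest pool differed from gene to gene, being pool 2 for C4b, pool 3 for C2 and pool 1 for Cfb.

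C4b, C2 and Cfb are close neighbours in the class III part of the major histocompatibility complex. In the RefSeq gene order of GRCm38.p6, used here only for which genes neighbour each other, no protein-coding gene lies between Cfb and C2. Between C4b and C2 lie 7 genes, namely Cyp21a1, C4a, Stk19, Dxo, Skiv2l, Nelfe and Cfb. Of these, C4a and Cfb had a name here. C4a is a near-identical copy of C4b, known in mice as the sex-limited protein gene and annotated in that table as a transcribed pseudogene. Its own probe set (10450280) was dim. It read 7.98, 9.44 and 10.3 in the subcutaneous pools and 5.28, 4.0 and 4.66 in the perigonadal pools, so the groups did not overlap. The log2 difference was -0.86 ± 0.12, with an adjusted p of 0.00495 in limma, and it shrank to -0.29 with a pseudocount of 16. Whether each of the C4a and C4b probe sets also captures RNA of the other copy was not tested.

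Genes of the wider class III part went both ways. Tnxb, next to C4b, did not pass (log2 difference -0.18 ± 0.087, limma adjusted p = 0.293). From Tnxb to Hspa1a 6 of 16 genes had a name, C4b, C2 and Cfb among them, and their log2 differences were all negative. Notch4 and Tnf, given below, lie outside that stretch. Of 35 listed class III neighbours, 5 had a name, of which 1 was lower, 2 were higher and 2 did not pass the threshold (adjusted p below 0.05). That list does not hold C4a, which was lower. The heat shock gene Hspa1a, which has a near-identical copy in Hspa1b, had 258 ± 42.5 in subcutaneous against 167 ± 18.7 in perigonadal pools, a log2 difference of -0.61 ± 0.10. The Notch receptor gene Notch4 was at 5.55 ± 0.487 and 8.61 ± 1.51, and the cytokine gene Tnf at 3.42 ± 0.419 and 6.79 ± 0.242, both dim on these arrays. The Hspa1a call was lost without pool pair 1, and also without subcutaneous pool 1, perigonadal pool 2 or perigonadal pool 3 alone (adjusted p 0.0503 to 0.0889). The Notch4 call was lost without pool pair 1, subcutaneous pool 1 or subcutaneous pool 3 (0.0509 to 0.125) and with a pseudocount of 16 (0.0837). Runs without a single array, here and further on, were fitted without the pool number as a block. With no block on all arrays both calls held (limma adjusted p 0.0172 for Hspa1a and 0.0196 for Notch4). The authors' table places 36 named genes in band B1 of chromosome 17, and named genes without a band there were not counted. Of the 33 other than C4b, C2 and Cfb, 11 were lower, 3 were higher and 19 did not pass. For comparison, 31.4% of the 3181 named genes were lower and 20.9% were higher.

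Most other complement genes described here did not pass the threshold. Of 51 such genes, 11 had a name. In limma, which called 9.51% of all probe sets, 5.47% lower and 4.05% higher (31.4% and 20.9% of named genes), 2 of the 11 were lower and 9 did not pass. Their median log2 difference was -0.043, against -0.010 for all probe sets and -0.17 for named genes. All 11 had been selected by the authors' test on these samples, which makes these counts no independent evidence of a direction. With the methods' t-test, which takes the spread from the 3 pairs of each probe set alone, none of the 23531 probe sets passed the adjustment. In that test 3541 had an unadjusted p below 0.05. Of these 3531 had a name, so they are not quite the same set as the named probe sets.

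Among initiators of the classical pathway, C1rb was lower in perigonadal cells. It encodes a C1r protease, which activates C1s, and read 296, 310.3 and 298 in subcutaneous and 198, 210.2 and 213 in perigonadal pools. The groups did not overlap, and the log2 difference was -0.54 ± 0.085 (adjusted p = 0.00763 in limma). Without pool pair 1 the adjusted p was 0.0654. C1rb has a close copy, C1ra, which had no name here, and the array signal could not be divided between them. The C1s protease gene C1s2 was at 10.1 ± 0.909 and 9.02 ± 0.695 (adjusted p = 0.376). The macrophage product C1qa, a chain of the recognition subunit C1q, was at 4.87 ± 0.473 and 4.33 ± 0.415, below every array median (adjusted p = 0.409). Of the lectin pathway, the scavenger collectin Colec12 was the one named gene, at 112 ± 7.41 and 139 ± 3.84 (adjusted p = 0.0679, and 0.0244 with a pseudocount of 16).

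Neither of the complement inhibitor genes described here passed the threshold. Serping1, which encodes the C1 inhibitor, was at 997 ± 46.6 and 968 ± 47.2 (adjusted p = 0.849), and Cd55, which speeds the decay of convertases on the cell surface, at 194 ± 47.7 and 218 ± 45.6 (adjusted p = 0.298).

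The named terminal pathway genes (2 of 7 listed) and receptor genes (2 of 9 listed) did not pass either. C7, part of the membrane attack complex, was at 554 ± 21.6 and 686 ± 9.58, with groups that did not overlap (log2 difference 0.31, adjusted p = 0.0721). It passed with no replicate block (0.0471) and with a pseudocount of 16 (0.0191). C8g, another component of that complex, was at 4.87 ± 0.526 and 4.597 ± 0.525, and the receptor genes C5ar1 and Itgam were at 3.51 and 3.38 and at 2.38 and 2.47. These values were below the array medians.

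**Figure D2:**
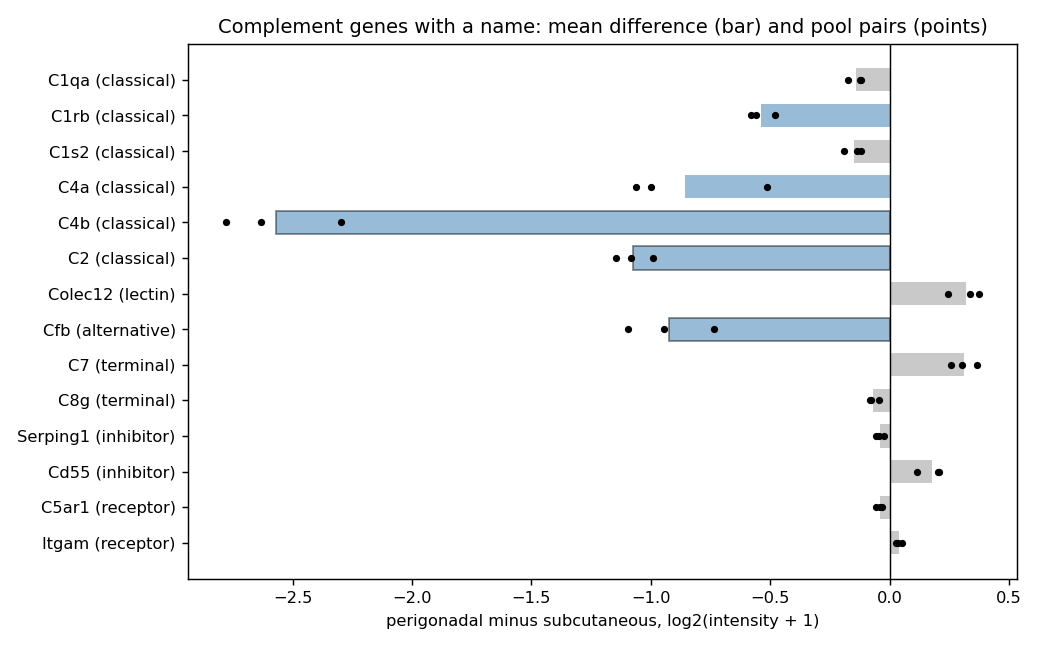
Perigonadal minus subcutaneous difference on the log2(intensity + 1) scale for 14 complement genes with a name, with bars for the mean and points for the 3 pool pairs. Blue bars are lower at an adjusted p below 0.05, grey bars did not pass, and outlined bars are C4b, C2 and Cfb, coloured without a test. C4b reaches -2.57, C2 -1.07 and Cfb -0.93, and the grey bars run from -0.15 (C1s2) to 0.31 (C7) and 0.32 (Colec12).

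Genes of the interferon response were mostly lower in perigonadal pools too. Of 37 listed genes 21 had a name, of which 19 were lower in perigonadal cells, none was higher and 2 did not pass, with a median log2 difference of -0.95. The background is the same 31.4% of named genes, and the list was selected by the same test. The interferon-induced chemokine Cxcl9 read 68.4, 62.9 and 88.7 in subcutaneous and 12.7, 6.38 and 19.4 in perigonadal pools, with a log2 difference of -2.53 ± 0.18. Cxcl10, another such chemokine, was at 212 ± 6.19 and 73.1 ± 13.8 (log2 difference -1.54 ± 0.11). Usp18, a brake on interferon signalling, was at 46.9 ± 6.45 and 9.25 ± 0.761, and the antiviral gene Ifit1 at 40.6 ± 2.30 and 12.1 ± 3.20. The adjusted p-values of these 4 genes in limma lay between 3.67e-05 and 0.000538. Perigonadal pool 3 was the highest perigonadal pool for 11 of the 21 genes.

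Acute phase and NF-kB target genes, a group that in liver and fibroblasts responds to interleukin 1 and interleukin 6 and to which Cfb is also known to belong, had a median above 0. Of 20 listed genes 6 had a name, of which 4 were higher, none was lower and 2 did not pass, with a median log2 difference of 0.71. Among all named genes, which had passed the authors' own test of this contrast, 20.9% were higher. Haptoglobin (Hp), which binds free haemoglobin, was at 18.7 ± 0.662 and 533 ± 12.8, and the iron-chelator binding protein gene Lcn2 at 4.73 ± 0.881 and 22.5 ± 4.0. The cytokine gene Il6 was at 400.1 ± 69.0 and 598 ± 50.4, so the log2 difference was 0.59 ± 0.094 (adjusted p = 0.00781 in limma). Without pool pair 1, or without subcutaneous pool 1, perigonadal pool 2 or perigonadal pool 3, the Il6 adjusted p was 0.0541 to 0.0799. With no replicate block on all arrays, the Il6 adjusted p was 0.0214.

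Markers of several cell types moved between the same pools. In bulk samples, fewer cells of a type and less RNA per cell cannot be told apart. A marker had a name only if the authors' test of this same contrast had kept it, so unchanged markers are mostly missing. Among all named genes 31.4% were lower and 20.9% were higher. Of 10 listed stromal markers 6 had a name and 5 were lower in perigonadal cells, with a median log2 difference of -0.64. The summed intensity of the named stromal markers was 3312 to 3520.2 in subcutaneous and 2041 to 2278 in perigonadal pools. Thy1, a surface marker of fibroblasts, had a log2 difference of -0.96 ± 0.084 and the collagen gene Col1a1 of -1.11 ± 0.12, differences like those of C2 and Cfb in size. All 7 named of 11 mesothelial markers were higher, with a summed intensity of 40.8 to 52.7 in subcutaneous and 297 to 342 in perigonadal pools. The perigonadal sum came mainly from Wt1 (mean 141) and Rspo1 (96.3). The rest were dimmer, with perigonadal means from 7.85 (Gpm6a) to 26.2 (Krt8). All 4 named of 7 pericyte markers were higher as well (28.2 to 41.5 against 100 to 136), and all 3 named of 6 Schwann cell markers were lower (50.8 to 61.4 against 18.4 to 20.7). Among the pericyte markers, the call of the actin-binding protein gene Tagln (limma adjusted p = 0.0124) was lost with no replicate block (0.0539) and without pool pair 1 (0.0557) or 2 (0.0784). It was also lost without any single array other than perigonadal pool 2 (0.0693 to 0.167). The 1 named of 8 endothelial markers, the angiopoietin receptor gene Tek, was lower at 130.01 ± 8.99 and 76.5 ± 2.94. Of 12 leukocyte markers 2 had a name, with a summed intensity of 4.79 to 5.17 and 4.64 to 4.91, below the array medians. None of the 8 adipocyte markers had a name. The part of these cell types in the C4b, C2 and Cfb differences was not tested.

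**Figure D3:**
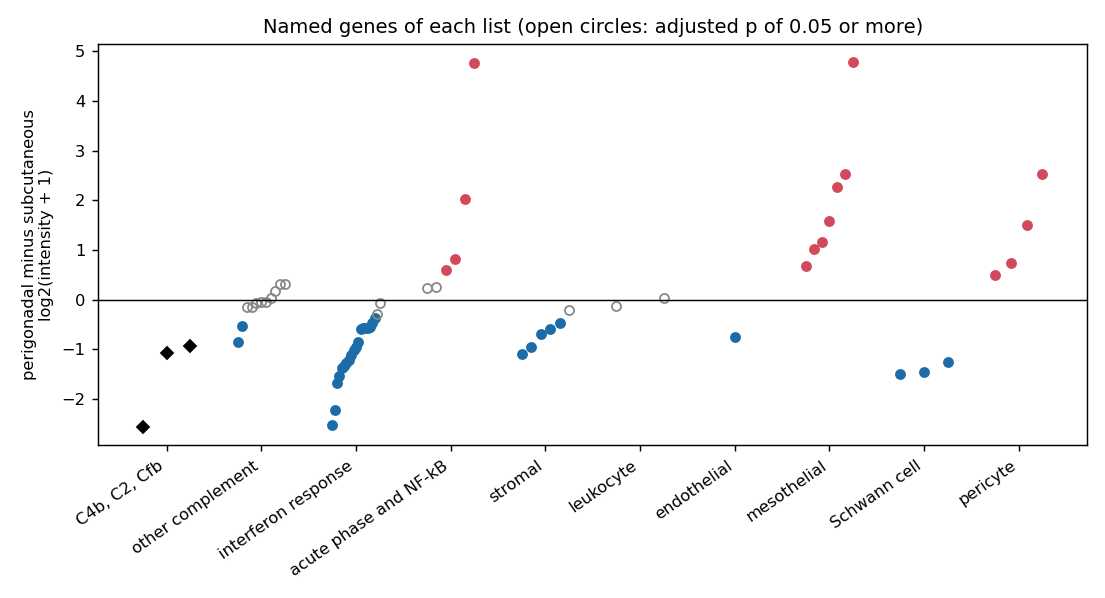
Perigonadal minus subcutaneous difference on the log2(intensity + 1) scale for each named gene of the lists, 1 symbol per gene. Black diamonds are C4b, C2 and Cfb (shown without a test), filled circles passed an adjusted p of 0.05 (blue lower, red higher) and open circles did not. The interferon genes lie below 0, with 19 of 21 filled, and the 7 mesothelial genes above it.

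C4b, C2 and Cfb were also compared with every other named gene by their centred values over the 6 pools. Likeness was the Euclidean distance between log2(intensity + 1) values centred on each gene's mean, so a gene at distance 0 would have the same profile. The values were not scaled, so near genes are mainly those with a depot difference of like size. C2 and Cfb were near each other, at a distance of 0.30, where Cfb ranked 48 of 3180 genes around C2 and C2 ranked 66 around Cfb. C4b was far from both, at 1.85 from C2 and 2.04 from Cfb. This reflects the larger C4b difference and is a description with no test.

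The 5 genes nearest to C4b were the homeobox gene Hoxc10 (distance 0.21), Plac8 (0.28), the carbonic anhydrase-related gene Car8 (0.40), the matrix metalloprotease gene Mmp27 (0.41) and Prkg2, a protein kinase activated by cyclic GMP (0.44). Plac8 went from 266 ± 36.7 in subcutaneous to 44.01 ± 5.73 in perigonadal pools. Hoxc10 was at 41.8 ± 4.03 and 5.60 ± 0.914. The 5 nearest to C2 among those reported were the inflammasome protease gene Casp1 (0.13), the nuclear pore gene Nup93 (0.14), Gpnmb (0.14), Asphd2 (0.16) and the angiopoietin-like gene Angptl2 (0.19). Casp1 was at 25.2 ± 2.43 and 11.0 ± 1.35, and Gpnmb, a transmembrane glycoprotein gene, at 267 ± 8.90 and 120.0 ± 11.4. The 5 nearest to Cfb were Fam171b (0.12), the Wnt inhibitor gene Apcdd1 (0.13), the antiviral nucleotide hydrolase gene Samhd1 (0.16), the sorting nexin gene Snx33 (0.17) and the growth factor gene Bmp3 (0.17). Samhd1 was at 286 ± 13.1 and 148 ± 10.6, and Bmp3 was dim throughout, at 6.34 ± 0.384 and 3.04 ± 0.469.

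**Figure D4:**
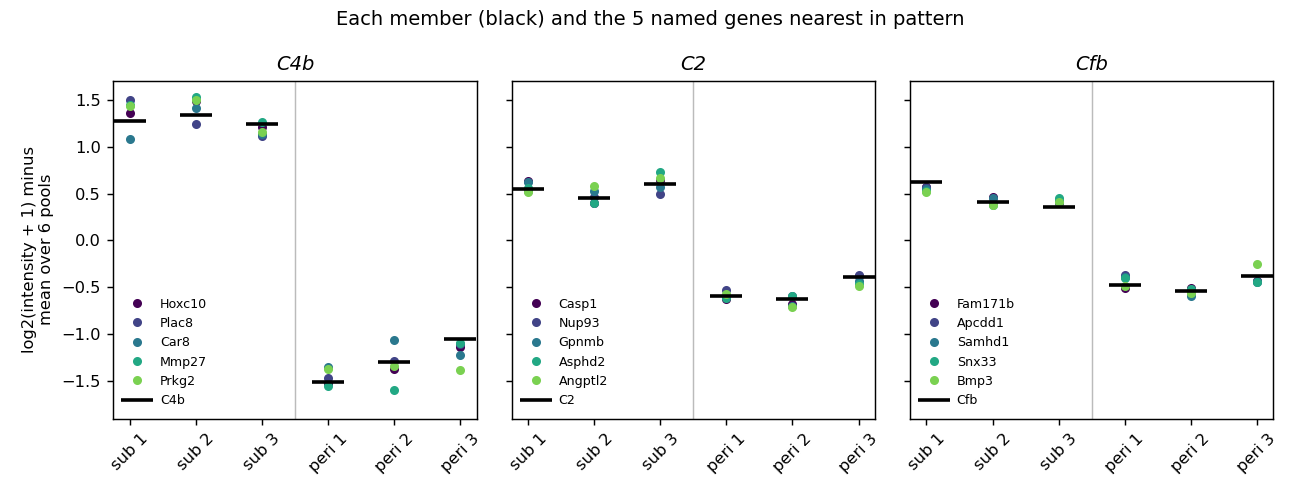
Values of C4b, C2 and Cfb (black bars) and of the 5 named genes nearest to each (coloured points) in subcutaneous (sub) and perigonadal (peri) pools 1 to 3, as log2(intensity + 1) minus the gene's mean over the 6 pools. The mean differences between the depots are -2.57 for C4b, -1.07 for C2 and -0.93 for Cfb.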

How the data were processed

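The authors deposited a table of normalized intensities, linear in scale, with a value for each probe set in each pool. Its log2 values average to the log2 means in the authors' comparison table (median gap 0.00013). That table also holds a ratio, a signed fold score, the t score of the authors' paired test and its p-value without adjustment, per the file headers. The submitters' processing notes name Partek. How they normalized is not given in the sources used here. Precision is limited by the 6 arrays.

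Probe sets were named through RefSeq accessions in the GRCm38.p6 gene table (3417 of 3694 entries), then symbols (166), and 111 kept the file's symbol. The brightest probe set stood for a gene. All 23531 probe sets were fitted on log2(intensity + 1) with limma 3.58.1 in R 4.3.3 (lmFit, eBayes), with the pool number as a block after the authors' paired test, and adjusted by Benjamini-Hochberg (threshold 0.05). The fit was tested on simulated data. The members, gene lists and naming rules were chosen with earlier results of these data known. Named were complement genes with a name, up to 4 genes per other list by size of difference, and the 5 genes nearest to each member. Tnxb was added as the neighbour of C4b. A few genes that these rules select are not reported here and are left out of the counts of their list.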

Additional observations from a re-analysis of the deposited data

How the results depend on the processing

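The direction of C4b, C2 and Cfb was the same in each alternative read for them, which left out the methods' t-test. As their groups did not overlap, leaving out arrays or changing the pseudocount or block could not reverse it. The unchanged direction is therefore no support. With a pseudocount of 16 the log2 difference was -2.27 for C4b and -0.92 for C2, and leaving out pool pairs or single arrays gave -2.71 to -2.46 for C4b, -1.15 to -1.03 for C2 and -1.02 to -0.84 for Cfb. Over all probe sets, 2238 differed (1286 lower, 952 higher). Leaving out pool pairs or arrays gave 1189 to 2476 (660 to 1408 lower, 529 to 1068 higher), and the methods' t-test gave 0, with 3541 at an unadjusted p below 0.05. The 2 other complement genes called became 1 to 2 with a pool pair or array left out, 4 with a pseudocount of 16, 1 among probe sets brighter than the median, where C4a was not tested, and 0 with the methods' t-test. C5ar1 and C8g, which did not pass, changed sign with 1 array left out (ranges -0.11 to 0.023 and -0.14 to 0.011). Dim genes had no value among probe sets brighter than the median, and no other complement gene had several probe sets, so their mean was not run. With no replicate block, which was also left out of the runs without a single array, 2259 probe sets differed. Deviations from the depot mean correlated across probe sets between pools that share a number at 0.17, 0.16 and 0.053, a weak pairing. Counting each pair of a single tested gene and an alternative once, 518 kept direction and side of the threshold, 50 lost the call, 7 gained it and 3 changed sign, the C5ar1 and C8g values above. The 518 include genes not called in the main fit. The 50 include every called gene under the methods' t-test, a loss that was bound to occur as no probe set passed there. The interferon genes called lower numbered 14 to 20 and the acute phase genes called higher 3 to 6, but 0 of either with the methods' t-test.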
